A study of Bos taurus with 96 samples.

Results

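Liver biopsies taken in late pregnancy (LP) from 16 Holstein cows, 8 of good (Fert+) and 8 of poor (Fert-) genetic merit for fertility, were compared across all genes. They are the 16 of 96 libraries whose labels give liver and late pregnancy, with 1 library per cow. The other libraries are liver from the same cows in early (EL) and mid lactation (ML) and muscle at the 3 time-points. All were Holstein cows chosen at opposite ends of the breeding value for calving interval with similar genetic merit for milk, no allele or agent distinguishes the groups in the labels, and their ages at biopsy are not given in the labels. The genotype is thus a polygenic background and not a single allele. The liver was taken by percutaneous punch, polyadenylated RNA was made into TruSeq v2 libraries, and the values are counts of read pairs per gene.

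In the weeks before calving the liver of the dairy cow supplies nearly all of the glucose that the calf and the udder draw on, made by gluconeogenesis from propionate, lactate and amino acids. It also oxidises or re-esterifies the fatty acids released from fat, answers growth hormone with insulin-like growth factor and its binding proteins, makes bile acids, urea and most plasma proteins, and carries out the acute-phase response. Hepatocytes give most of its RNA. Kupffer cells (resident macrophages), sinusoidal endothelium, stellate cells, bile duct cells and lymphocytes make up the rest, and hepatocytes divide seldom in the adult.

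Total counts were 17117604 to 24338724 (median 18379831) in the Fert+ and 14966847 to 22423629 (median 18648853) in the Fert- libraries. CPM, the usual depth-scaled count of RNA-seq, was computed here from TMM-adjusted library totals, and it is not divided by gene length, so that levels are compared between cows and not between genes. The 10 hepatocyte markers summed to between 108100 and 198400 CPM in Fert+ and between 121800 and 202300 CPM in Fert- cows. None of the 11 skeletal muscle marker genes was abundant enough to be tested, their sum was at most 0.254 CPM in any library, and MYH7 (ENSBTAG00000009703), TNNC2 and MYOT were at 0 in all 16. The libraries of Fert+ cows 33 and 756 had a counting pattern unlike that of the other 14: of 19 genes with reads in those libraries and almost none elsewhere, 14 and 13 were counted there. Both libraries are Fert+ and none of the 8 Fert- libraries had this counting pattern, so genes high with it raise the Fert+ mean. The other Fert+ libraries lack the pattern, and counts without cows 33 and 756 are given where they matter.

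The labels of 2 of the 16 libraries went against their expression. Over 150 genes that distinguish the cows in muscle, 45 of the 48 liver libraries correlated best with the muscle of the cow on their label. The LP library labelled Fert- 829 correlated at -0.098 with the muscle of cow 829 and at 0.677 with that of Fert+ cow 3434, and the EL library labelled Fert+ 3434 correlated at 0.111 with the muscle of cow 3434 and at 0.572 with that of cow 829. Single genes did the same. The MHC class I gene BOLA (ENSBTAG00000022590) stood at 64.1 to 76.6 CPM of the library total in the 3 muscle libraries of cow 829, at 102.0 and 112.0 in its EL and ML liver, and at 6.67 in the LP liver library labelled 829, while cow 3434 had 3.04 to 3.72 in muscle, 5.94 and 3.66 in LP and ML liver and 98.2 in the EL liver library with its label. The muscle isoform of fructose bisphosphatase, FBP2, was at 13.8 in the LP library labelled 829 against 0.548 and 0.755 in the EL and ML liver of that cow. The third library that was closest to another cow was the EL library of Fert- 419, at 0.275 with its own cow and 0.334 with cow 426.

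The second library is that of Fert- cow 426, which correlated best with its own cow. A time-point score was the mean, over the 200 genes that separated LP from EL most in the other 15 cows, of the signed distance in log2(CPM + 1) from the midpoint of the time-points. It was -0.994 in the LP and 0.509 in the EL library of cow 426. Fert+ cow 430 had -0.265 at LP, and the other 14 LP libraries lay between 0.267 and 0.788. The EL libraries other than those labelled 426 and 3434 lay between -1.83 and 0.267 with a median of -0.396. The EL library labelled 3434 scored 0.704. The LP library labelled 829 scored 0.267, the lowest of those 14 and equal to the highest of those EL libraries. The LP library labelled 3434, which correlated best with its own cow at 0.663, scored 0.394. Whether the LP library labelled 829 and the EL library labelled 3434 were exchanged was not tested, so the genotype and time-point of both are uncertain. Libraries were kept under their labels here, and values without the library labelled Fert- 829 or that of cow 426 are given beside results that moved with them. The library labelled 829 is thus counted as a Fert- cow in the counts of cows below.

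**Figure D1:**
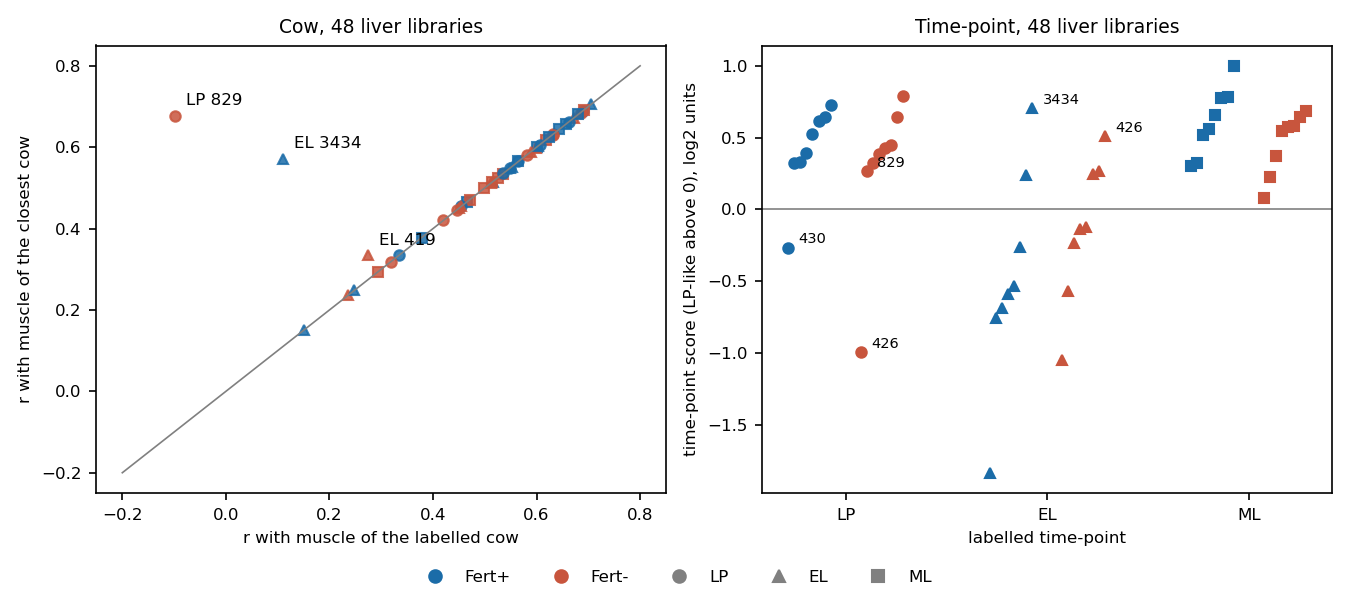
Left, for each of 48 liver libraries, the correlation (r over 150 genes) with the muscle of the labelled cow on the x axis and with the muscle of the closest cow on the y axis. Points on the line are closest to their own cow, and the LP library labelled 829, the EL library labelled 3434 and the EL library of 419 are off it. Right, the time-point score (log2 units) by labelled time-point, where cow 426 lies at -0.994 at LP and 0.509 at EL.

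The first question was whether any gene differed between genotypes at LP. Of 12872 genes with enough counts to be tested, 0 (0.0%) passed an adjusted p of 0.05 in edgeR's quasi-likelihood test, and the smallest adjusted p by that test was 0.731. At an unadjusted p under 0.05 there were 842 genes, 396 higher in Fert+ (3.08% of those tested) and 446 lower (3.46%). Neither DESeq2 (892 genes before adjustment) nor limma-voom (962) called any. The median log2 fold change over all tested genes, Fert+ relative to Fert-, was -0.0012 and the median absolute value was 0.109. Every cow-level difference below is therefore a description with its own spread, and no gene named here is called different by the main test.

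The study's own kind of test, the edgeR exact test with 1 common dispersion for all genes, called 306 genes, 140 higher (1.09% of tested) and 166 lower in Fert+ (1.29%). That dispersion corresponds to a coefficient of variation of 26.8% between cows. Some of its calls rested on single cows. In 27 of the 140 higher genes 1 cow held over 50% of the Fert+ total, 13 of them cow 430, 9 cow 33 and 4 cow 756. In 16 of the 166 lower genes 1 cow did so among Fert-, 13 of them cow 426. Among the lower genes, 75 had their highest Fert- value in cow 419 and 45 in cow 426. With a dispersion fitted to each gene, the exact test called 18 genes. Of its 12 higher genes, 9 were highest in cows 33 and 756 above all other 14, and the other 3 were PAMR1, IL1B and MARCO. Its 6 lower genes were IFI27, IFI6, ISG15, SFRP2, CNN1 and BIKBA. These 18 genes were picked out here after their values were seen.

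Only 3 genes (0.0233% of those tested) had Fert+ and Fert- values that did not overlap, and none has a symbol in the tables used. ENSBTAG00000020471 ran from 0.761 to 1.19 CPM in Fert+ (median 0.947) and from 0.455 to 0.714 CPM in Fert- (median 0.522), a log2 fold change of 0.76 ± 0.18 (SE). ENSBTAG00000038050 ran from 2.70 to 4.09 CPM (median 3.15) against 1.78 to 2.67 CPM (median 2.29), at 0.54 ± 0.14. ENSBTAG00000008634 was lower, at 52.3 to 65.4 CPM (median 59.7) against 66.0 to 87.4 CPM (median 70.3), at -0.26 ± 0.077. All 8 cows of a genotype were on 1 side in each of them. The two-sided exact permutation test over 12870 arrangements of the cows therefore gave its smallest possible p, 0.000155, for all 3. The 3 were picked for not overlapping, so this p was fixed in advance and adds no support. Over all 12872 genes, 724 had a permutation p under 0.05 and the smallest adjusted value was 0.667.

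Among genes with a symbol, PAMR1, IL1B, GATM and CCSER1 headed those higher in Fert+, and all 4 overlapped between genotypes. The leading genes in both directions were picked for the smallest p of the quasi-likelihood test. Their permutation p and leave-one-out values come from the same 16 libraries and are not independent support. PAMR1, a secreted protein with a peptidase-like domain, was at 1.80 to 6.86 CPM (median 2.59) in Fert+ and at 0.421 to 2.16 CPM (median 0.877) in Fert-. Of the 8 Fert- cows, 6 were below every Fert+ cow, and the exceptions were cow 419 and the library labelled 829. The log2 fold change was 1.5 ± 0.34, the unadjusted p 0.00036 and the permutation p 0.00171. Leaving out 1 cow at a time gave 1.24 to 1.72.

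IL1B, the inflammatory cytokine interleukin 1 beta that macrophages make, was at 5.02 to 13.9 CPM (median 7.37) in Fert+ against 2.46 to 7.30 CPM (median 4.17) in Fert-. All but Fert- cow 419 lay below every Fert+ cow (0.99 ± 0.24, permutation p 0.00186). GATM, which makes the precursor of creatine from arginine and glycine, was among the more abundant of these transcripts, at 1295 to 4356 CPM (median 2830) against 857 to 2299 CPM (median 1301). For GATM, 6 Fert+ cows were above all Fert- cows, and cows 756 and 3434, at 1295 and 1307 CPM, were not (0.94 ± 0.25, permutation p 0.00793). CCSER1 was at 3.499 to 8.86 CPM against 2.11 to 4.97 CPM (0.84 ± 0.22). With 1 library left out at a time, the log2 fold change stayed between 0.85 and 1.15 for IL1B, 0.81 and 1.07 for GATM and 0.71 and 0.97 for CCSER1.

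Lower in Fert+ were BIKBA, CNN1, SFRP2, MYL9, SLC17A1, PPIA and TXNIP. BIKBA was at 22.3 to 32.2 CPM (median 27.4) in Fert+ and 29.3 to 69.7 CPM (median 40.3) in Fert- cows, 6 of which were above every Fert+ cow (-0.69 ± 0.16, permutation p 0.00124). The library labelled 829, at 37.7 CPM, was 1 of the 6. SLC17A1, a phosphate and urate transporter of liver and kidney, was at 23.6 to 100.7 CPM (median 71.1) against 81.3 to 181.2 CPM (median 117.5), and 7 of 8 Fert+ cows were below every Fert- cow (-0.92 ± 0.25, permutation p 0.000777). Cow 756 was the exception.

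CNN1 and MYL9 encode calponin and the regulatory light chain of smooth muscle myosin. MYL9 was at 123 to 175 CPM (median 138.7) against 160 to 207 CPM (median 176.8), with 7 Fert+ cows below all Fert- cows (-0.33 ± 0.089). CNN1 was at 0.201 to 1.53 CPM against 0.534 to 6.99 CPM, and 5 Fert- cows were above every Fert+ cow (-1.98 ± 0.52). The library labelled 829, at 4.92 CPM, was 1 of the 5. SFRP2, a secreted modulator of Wnt signalling made by fibroblasts, was at 0.0447 to 1.11 CPM against 0.191 to 7.97 CPM, and its log2 fold change went from -2.68 to -1.85 without Fert- cow 419. TXNIP, an inhibitor of thioredoxin whose transcription follows glucose supply, was at 123 to 205 CPM (median 172.7) against 168 to 384 CPM (median 242.8), and 6 of 8 Fert- cows were above every Fert+ cow (-0.54 ± 0.15). The library labelled 829, at 270.4 CPM, was 1 of the 6. PPIA, cyclophilin A, was at 97.5 to 168 CPM against 120 to 206 CPM (-0.46 ± 0.13).

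**Figure D2:**
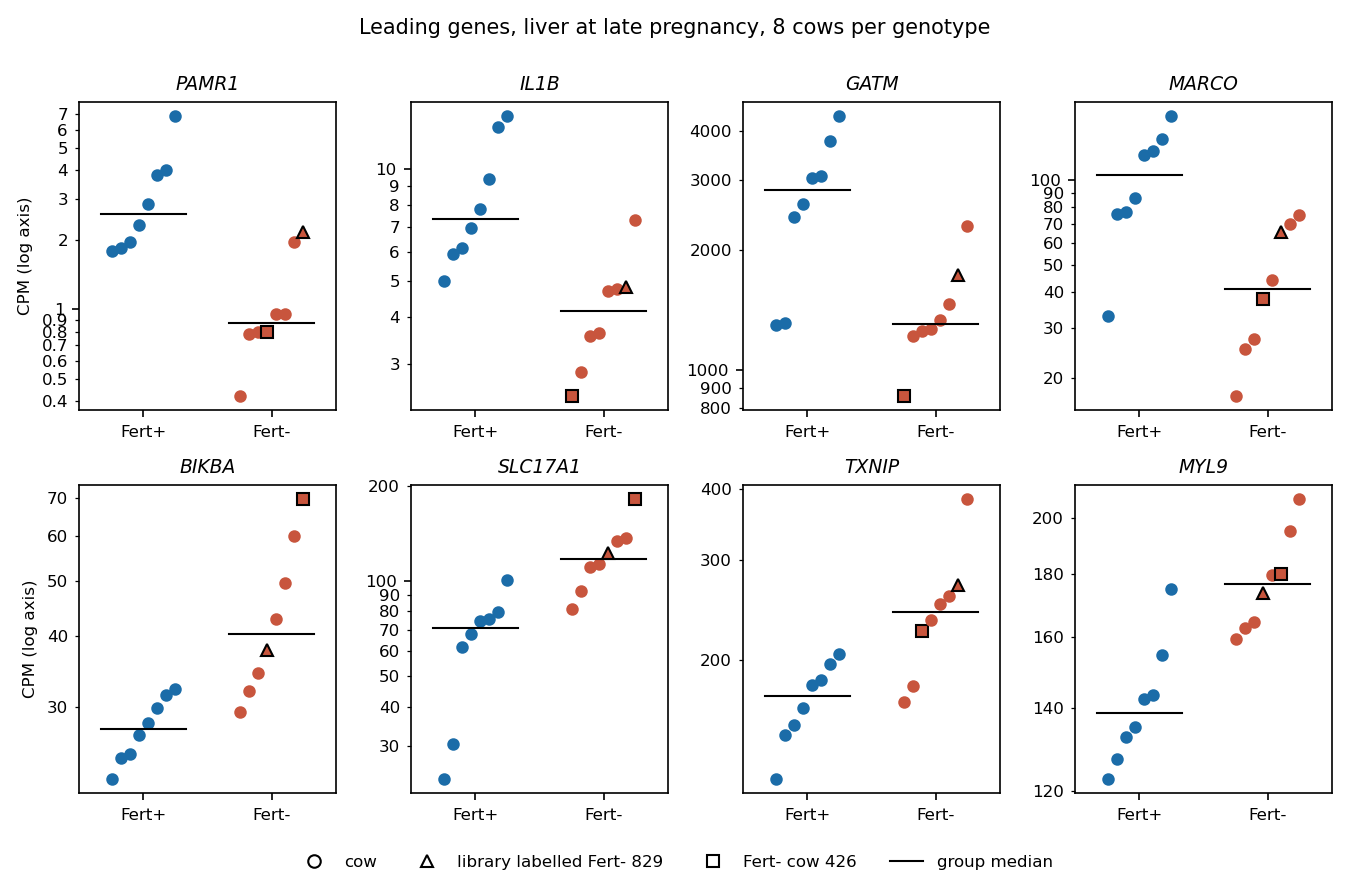
CPM on a log axis in the 8 Fert+ (blue) and 8 Fert- cows (red) for 8 of the leading genes, with 1 point per cow, the library labelled 829 as a triangle, cow 426 as a square and the group median as a line. The genotypes overlap in every panel. In SLC17A1 and MYL9 7 of 8 Fert+ cows lie below every Fert- cow.

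Gene groups were then described by the number of tested members at an unadjusted p under 0.05 and by the median log2 fold change of all tested members. Of all 12872 tested genes, 3.08% were higher and 3.46% lower in Fert+ at that unadjusted p. Whether a group held more such genes than these shares was not tested. A group with few such members is thus only described, and is not set apart from the other tested genes. Symbols were known mainly for abundant genes and for genes on the study's own lists, which were chosen on these samples. A group with many members from those lists is therefore not independent evidence of its direction, and their number is given beside the counts where it is above 0. The 31 groups include markers of the cell types that a biopsy can hold.

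**Figure D3:**
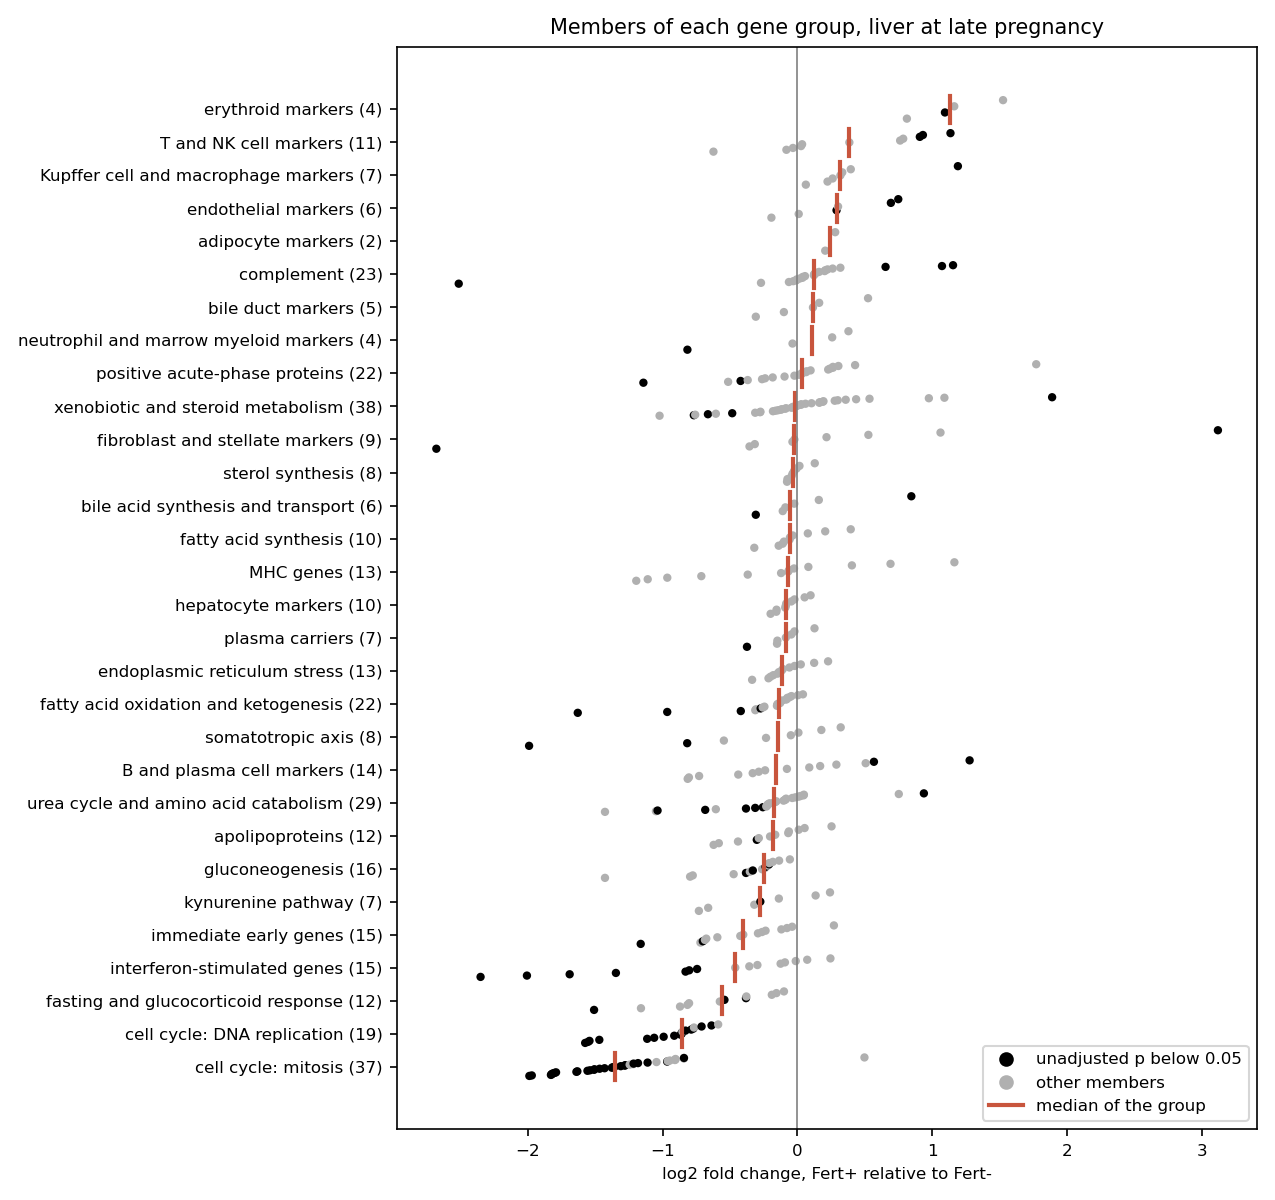
Log2 fold change (Fert+ relative to Fert-) of every tested member of each gene group, with the number of tested members in brackets, members at an unadjusted p under 0.05 in black and the median of the group as a red bar. The groups are ordered by their median, from mitosis at -1.35 to erythroid markers at 1.13.

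Markers of Kupffer cells, endothelium and T and NK cells had medians above 0, that is higher in Fert+, and those of B and plasma cells a median below 0. All 7 macrophage genes had a log2 fold change above 0 (median 0.319), 1 of them at an unadjusted p under 0.05, and 1 of the 7 is on the study's lists. MARCO, a scavenger receptor of resident macrophages, was at 33.1 to 168.2 CPM (median 104.3) in Fert+ and 17.2 to 75.3 CPM (median 41.1) in Fert-, and 7 Fert+ cows were above every Fert- cow. Cow 3847, at 33.1 CPM, was the exception (1.19 ± 0.34, permutation p 0.00761). C1QB, a subunit of complement C1q made by macrophages, was at 141 to 315 against 119 to 251 CPM (0.32 ± 0.16). CD5L, a protein that macrophages secrete, was at 109 to 377 against 105 to 264 CPM (0.40 ± 0.21), and VSIG4, a complement receptor of Kupffer cells, at 6.07 to 13.2 against 5.01 to 11.2 CPM (0.33 ± 0.18). The sum of the 7 genes was 610 to 1477 CPM in Fert+ and 573 to 1107 CPM in Fert-, which overlapped. Without Fert+ cow 3847 5 of the 7 were at an unadjusted p under 0.05, and without Fert- cow 1000 or 1179 3 were. In a bulk biopsy fewer cells of a type and less RNA per cell cannot be told apart.

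Of 6 endothelial genes, 3 were higher at an unadjusted p under 0.05 and 0 lower, with a median of 0.296, and 2 are on the study's lists. The adhesion molecule VCAM1 (ENSBTAG00000007773) was at 33.9 to 104.8 CPM against 13.8 to 63.9 CPM (0.75 ± 0.27). P-selectin (SELP) was at 10.1 to 39.2 against 4.01 to 21.6 CPM (0.69 ± 0.31), and the angiopoietin receptor TEK at 38.5 to 64.5 against 25.6 to 52.6 CPM (0.29 ± 0.14). The groups overlapped in all 3. The count of 3 was 1 without any 1 of cows 33, 756, 3445, 419, 426 and 1000, and 0 without cows 33 and 756 together, when the median was 0.340.

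Of 11 T and NK cell genes, 3 were higher and 0 lower (median 0.386, 5 on the study's lists). TRBC2, a constant region of the T cell receptor, was at 0.581 to 3.82 against 0.542 to 1.57 CPM, and its log2 fold change of 1.14 ± 0.35 became 0.65 without cows 33 and 756. Granzyme A (GZMA) was at 0.792 to 3.80 against 0.535 to 1.93 CPM (0.91 ± 0.30), and KIR3DL1, a killer cell receptor, at 0.898 to 5.86 against 0.928 to 1.65 CPM (0.93 ± 0.35). Of 14 B and plasma cell genes, IGHE and BANK1 were higher and 0 lower, while 8 had a log2 fold change below 0 and the median was -0.158. The study's lists hold 4 of the 14. IGHE, the constant region of immunoglobulin E, was at 0.370 to 2.05 against 0.334 to 0.856 CPM (1.28 ± 0.34). Below 0 were both IGHM copies, the light chain genes IGLC1, IGLL1 and IGLV1-40 (-0.44, -0.33 and -0.73), IGJ, FCRL1 and FCRL5. The IGHM copy ENSBTAG00000048049 was at 332 CPM in Fert- cow 164 and at most 82.9 CPM in any other cow, and its log2 fold change of -0.80 was 0.079 without that cow, when the median of the group was 0.167.

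All 4 tested erythroid genes (ANK1, KEL, XK and HBB) had log2 fold changes above 0 (median 1.13) and all 4 are on the study's lists. ANK1 (ENSBTAG00000003275) alone was at an unadjusted p under 0.05, at 0.326 to 3.91 against 0.357 to 1.71 CPM. KEL, the Kell blood group antigen, was at 3.04 to 17.2 against 0.571 to 13.7 CPM, and 5 Fert- cows were below every Fert+ cow. HBB, beta globin, reached 11.8 CPM in cow 756 and at most 2.93 CPM in any Fert- cow, and its log2 fold change of 1.53 was 0.49 without cow 756. The sum of the 7 erythroid genes with counts was 9.30 to 29.2 CPM in Fert+ and 2.21 to 15.4 CPM in Fert-, a low level in both.

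Of 9 fibroblast and stellate genes, 3 of them on the study's lists, CCDC80 was higher and SFRP2 lower at an unadjusted p under 0.05 (median -0.0221). CCDC80 was at 137.6 CPM in Fert+ cow 430 and between 1.001 and 3.81 CPM in the other 15, so that its log2 fold change of 3.12 was -0.16 without cow 430. No member of the bile duct (5 tested), adipocyte (2) or hepatocyte (10) groups was at an unadjusted p under 0.05. Of 4 tested neutrophil and marrow genes, lactoferrin (LTF), the 1 that is on the study's lists, was lower, at 5.78 to 20.2 against 10.6 to 34.9 CPM (-0.82 ± 0.26), and AZU1, CTSG (ENSBTAG00000013234) and CATHL6 were at 0 in all libraries.

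Cell cycle genes were lower in Fert+, with 3 libraries labelled Fert- far above all others. That labelled 829 was 1 of the 3, and its expression was closest to the muscle of Fert+ cow 3434. Of 37 tested genes of mitosis, 36 had a log2 fold change below 0, 27 were at an unadjusted p under 0.05 in that direction and 0 in the other, and the median was -1.35. All but 1 of the 37 are on the study's lists. Of 19 genes of DNA replication, 16 were lower and 0 higher, with a median of -0.86, and 17 are on the study's lists. Averaged over the 37 mitosis genes as log2(CPM + 1), cow 419 was at 3.18, the library labelled 829 at 2.66 and cow 1179 at 2.20. The 8 Fert+ cows were between 0.83 and 1.77 and the other 5 Fert- cows between 0.68 and 1.503. In 33 of the 37 mitosis genes and 18 of the 19 replication genes those 3 libraries were above all other 13. The 3 were picked for being the highest in these same genes, so these counts add no support. The share over all tested genes was not computed.

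**Figure D4:**
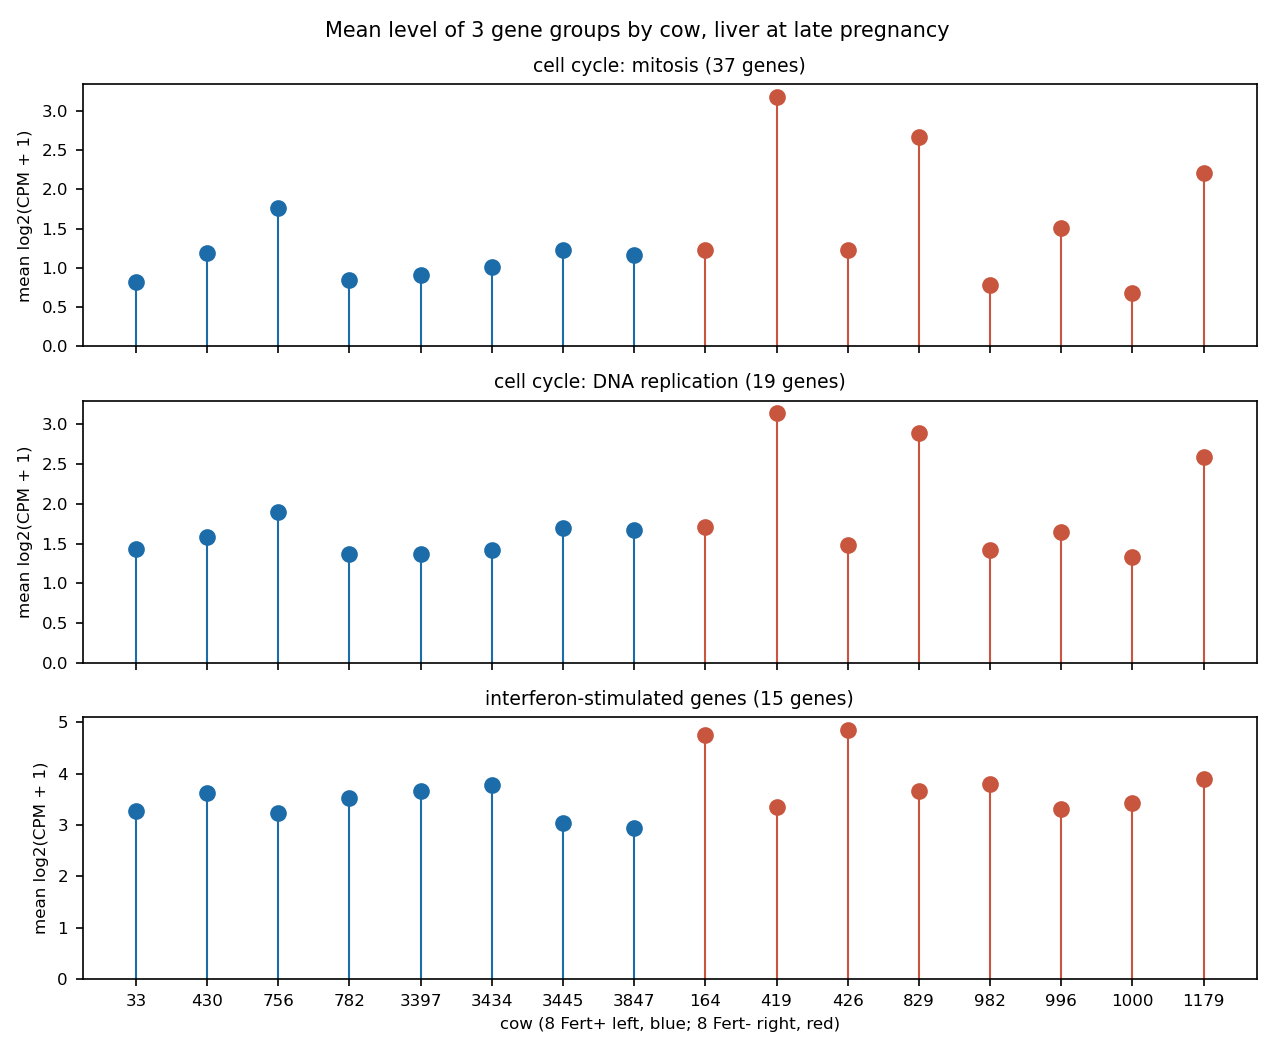
Mean log2(CPM + 1) by cow (8 Fert+ in blue, 8 Fert- in red) over the tested genes of mitosis, DNA replication and the interferon-stimulated group. Cows 419 and 1179 and the library labelled 829 stand above all others for the upper panels, and cows 164 and 426 for the lower.

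BIRC5 (survivin), of the mitosis group, was at 17.1 CPM in cow 419, 11.5 in the library labelled 829 and 6.54 in cow 1179. It was at 0.642 to 2.74 CPM in the other 5 Fert- and 0.623 to 3.67 CPM in the 8 Fert+ cows. The spindle motor KIFC1 had 10.6, 8.31 and 3.81 CPM in the same 3 libraries against a Fert+ range of 0.599 to 1.91 CPM. E2F1, the transcription factor of entry into S phase, had 3.46, 2.84 and 2.48 CPM against 0.257 to 0.8501 CPM. The log2 fold changes over all cows were -1.82 ± 0.60, -1.82 ± 0.59 and -1.57 ± 0.47. CDCA3, CKAP2L, the polymerase subunit POLE and the chromatin assembly factor CHAF1B had the same high libraries, at -1.28, -1.51, -0.71 and -1.11.

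The counts depended on those libraries. Without cow 419, 11 mitosis and 6 replication genes were lower at an unadjusted p under 0.05 (medians -0.88 and -0.58). Without the library labelled 829, 21 and 6 were (medians -1.11 and -0.69), and without it and cow 426, 24 and 11. The replication count was 10 without Fert+ cow 782 or 3434. TOP2A, the mitotic topoisomerase, had 28.7 CPM in cow 419 at LP, 2.22 CPM at EL and 11.6 CPM at ML. Cow 1179 had 16.04 CPM at LP and 15.6 CPM at EL, when cow 996 was the highest at 21.1 CPM, and at ML no liver library was above 11.9 CPM. TOP2A was chosen after its values were seen, and these CPM were scaled over the 48 liver libraries.

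Interferon-stimulated genes were lower in Fert+, again with single Fert- cows at the top. Of 15 tested, 13 had a log2 fold change below 0, 7 were lower and 0 higher at an unadjusted p under 0.05, and the median was -0.461. The study's lists hold 7 of the 15. Cows 164 and 426 were above all other 14 in 9 of the genes. That pair was picked for its high values in this group, so the count of 9 adds no support, and the share over all tested genes was not computed. The mean log2(CPM + 1) of these cows was 4.75 and 4.86, against 2.95 to 3.78 in Fert+ and 3.32 to 3.90 in the other 6 Fert- cows. ISG15, a ubiquitin-like protein conjugated after interferon, was at 41.3 and 97.5 CPM in cows 164 and 426, 5.03 to 14.4 CPM in the other Fert- and 2.55 to 11.01 CPM in the Fert+ cows (-2.01 ± 0.61). IFI27 was at 291 and 443 CPM in that pair and at 11.1 to 67.7 CPM in all other cows (-2.35 ± 0.69).

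IFI6 was less confined to that pair, since cow 1179 and the library labelled 829, at 28.3 and 31.9 CPM, were also above the Fert+ range of 7.50 to 18.1 CPM (-1.69 ± 0.47, permutation p 0.0123). OAS1Y, a sensor of double-stranded RNA, was at 57.8 to 202 CPM in Fert- and 35.8 to 88.9 CPM in Fert+ (-0.80 ± 0.27). Without cow 426, 5 of the 15 genes were still lower at an unadjusted p under 0.05 and the median was -0.345, with ISG15 at -1.22 and IFI6 at -1.18. IFI6 was at -1.71 without the library labelled 829 and -1.11 without both. ISG12(B) was too low to be tested and stood at 37.2 CPM in cow 426, 3.28 in cow 164 and at most 0.699 CPM elsewhere. In cow 426 ISG15 was at 100.3 CPM in the library labelled LP and 6.38 CPM in that labelled EL. Cow 164 had 43.0 and 53.3 CPM, all scaled over the 48 liver libraries. The time-point scores of those libraries of cow 426 went against their labels, so the order of its ISG15 values in time is uncertain.

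Several metabolic genes were far higher in the library labelled LP of Fert- cow 426 than in any other cow, and others had small differences without it. The time-point scores of the LP and EL libraries of cow 426 went against their labels. The time-point to which its values below belong is therefore uncertain. All 16 tested genes of gluconeogenesis and glycolysis had a log2 fold change below 0 (median -0.251), 4 of them lower at an unadjusted p under 0.05, and 3 are on the study's lists. Those 4 were tyrosine aminotransferase (TAT) and the enzymes MDH2, TPI1 and PGK1. MDH2, mitochondrial malate dehydrogenase, was at 124 to 191 CPM (median 149.9) against 146 to 286 CPM (median 178.9), with cow 426 at 286 CPM (-0.33 ± 0.13). TPI1 was at 83.4 to 126 against 97.1 to 138 CPM (-0.24 ± 0.097) and PGK1 at 81.5 to 115.5 against 91.1 to 135.5 CPM (-0.21 ± 0.098), with groups that overlapped. The count of 4 was 1 without cow 426, 419 or 782 and 2 without cow 3397, 3434 or 3445, and it was 6 without the library labelled 829 and 3 without that and cow 426. The median was -0.184 without cow 426.

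PC, pyruvate carboxylase, the entry of lactate and alanine carbon into gluconeogenesis, was at 2744 CPM in cow 426. The other 7 Fert- cows were at 265 to 601 CPM and the 8 Fert+ cows at 248 to 636 CPM, so its log2 fold change of -0.80 ± 0.41 was -0.12 without cow 426. SDS, serine dehydratase, was at 194.5 CPM in that cow and 7.14 to 26.4 CPM in the other 15, and -1.43 became 0.21. PDK4, the kinase that shuts off pyruvate dehydrogenase in fasting, was at 996 CPM there and 48.5 to 259 CPM elsewhere, and -1.16 became -0.30. Scaled over the 48 liver libraries, cow 426 had 2821 CPM of PC in the library labelled LP and 612.5 CPM in that labelled EL. For PDK4 it had 1024 and 85.2 CPM. At EL the highest PC value of any cow was 2523 CPM. Of 12 tested genes of the fasting and glucocorticoid response (median -0.558, 5 on the study's lists), 3 were lower and 0 higher, and without cow 426 1 was lower and the median was -0.264. DDIT4, a stress-induced inhibitor of mTOR, was at 9.85 to 158.6 CPM in Fert- and 11.8 to 28.9 CPM in Fert+ (-1.51 ± 0.59). Cows 426 and 982, at 123.5 and 158.6 CPM, were the high ones, and the value was -1.14 without the first and -0.93 without the other.

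IGFBP1, the insulin-repressed binding protein of the insulin-like growth factors, was at 2503 CPM in cow 426, 617 CPM in cow 982 and 55.4 to 322 CPM in the other Fert- cows, against 19.6 to 259.7 CPM (median 111.2) in Fert+. Its log2 fold change was -1.99 ± 0.75 over all cows and -0.86 without cow 426. SOCS2, the inhibitor that growth hormone induces against its own receptor, kept its value without that cow. It was at 15.6 to 37.9 CPM (median 24.3) in Fert+ and 15.8 to 88.3 CPM (median 41.8) in Fert-, where 5 cows were above every Fert+ cow (-0.82 ± 0.27, -0.83 without cow 426 and -0.61 without cow 164, permutation p 0.0295). The library labelled 829, at 39.3 CPM, was 1 of the 5. IGFBP2 was at 356 to 1406 against 521 to 2064 CPM (-0.54 ± 0.29). Of the 8 somatotropic genes, IGFBP1 and SOCS2 were lower and 0 higher, and the median was -0.14. Those genes are the 2 of the 8 on the study's lists, and 1 was lower without cow 426.

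**Figure D5:**
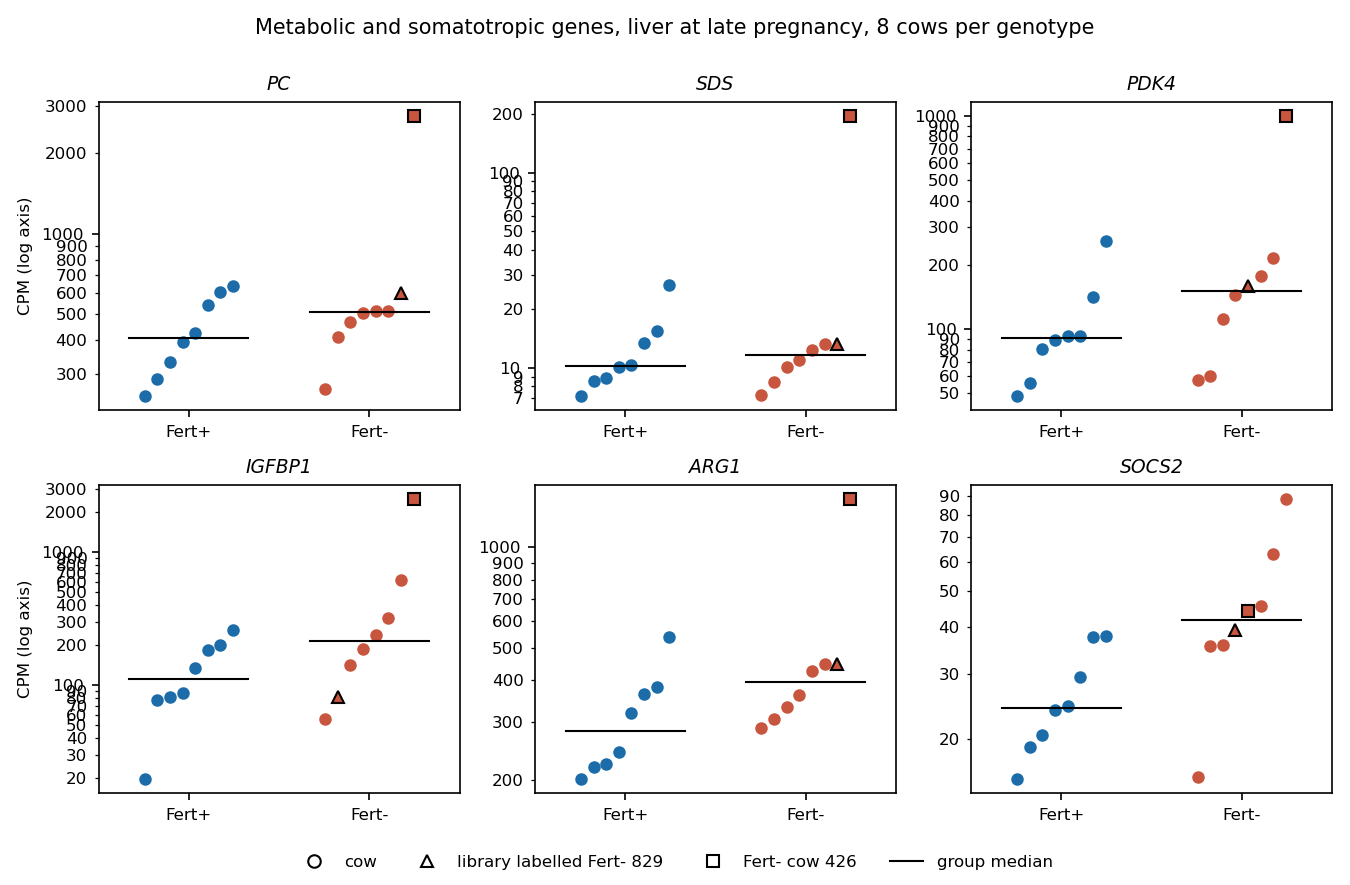
CPM on a log axis in the 8 Fert+ (blue) and 8 Fert- cows (red) for PC, SDS, PDK4, IGFBP1, ARG1 and SOCS2, with cow 426 as a square, the library labelled 829 as a triangle and the group median as a line. Cow 426 is the highest of the 16 in the first 5 panels and inside the Fert- range for SOCS2.

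The same library of cow 426 stood high for the amino acid enzymes, with the same doubt about its time-point. ARG1, the arginase that ends the urea cycle, was at 1393 CPM in cow 426, and 202 to 538 CPM in Fert+ and 288 to 448 CPM in the other Fert- cows (-0.68 ± 0.32, and -0.26 without it). Of 29 tested genes of the urea cycle and amino acid catabolism, 5 were lower and 1 higher at an unadjusted p under 0.05, 6 are on the study's lists, and the median was -0.174. The 5 were ARG1, TAT, HDC, CDO1 and AASS and the 1 was GATM. The count of 5 was 0 without cow 426 or 3397, and 1 to 3 without any 1 of 8 other cows. In the kynurenine pathway (7 tested, median -0.275, 2 on the study's lists), ACMSD was at 292 CPM in cow 426 and 27.9 to 85.8 CPM in the other 15 cows. HAAO, for which cow 426 was the lowest of the Fert- cows, was at 294 to 456.5 CPM against 332 to 524 CPM (-0.27 ± 0.12).

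Of 22 tested genes of fatty acid oxidation and ketogenesis 20 had a log2 fold change below 0, with a median of -0.138, 4 lower and 0 higher at an unadjusted p under 0.05, and 2 on the study's lists. ACAT1, the thiolase that makes acetoacetyl-CoA, was at 311 to 485 CPM (median 384.8) against 365 to 553 CPM (median 492.8), and 5 Fert- cows were above every Fert+ cow (-0.27 ± 0.11). ACADVL, the first dehydrogenase of long-chain oxidation, was at 1157 CPM in cow 426 and its -0.42 ± 0.18 was -0.20 without it. SLC22A16, a carnitine transporter, was at 0.793 to 7.36 against 1.02 to 20.1 CPM (-1.63 ± 0.57), and CPT1B, the muscle form of carnitine palmitoyltransferase, at 3.40 to 14.4 against 4.95 to 33.0 CPM. The count was 2 without cow 426 or 756 and 1 without cow 3397. The 8 tested genes of sterol synthesis and 10 of fatty acid synthesis had medians of -0.0305 and -0.0563, and 0 of either were at an unadjusted p under 0.05 in either direction. Among 12 apolipoproteins APOA2, a protein of high-density lipoprotein, was lower, at 2027 to 3632 against 2639 to 4248 CPM (-0.30 ± 0.14), and among 7 plasma carriers AFM, which binds vitamin E, was lower at 194 to 429 against 234 to 429 CPM.

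The acute-phase proteins differed between cows far more than between genotypes. The 24 genes summed to 59200 to 308600 CPM in Fert+ and 58160 to 308800 CPM in Fert-. Their 22 tested members averaged 11.72 on the log2(CPM + 1) scale in Fert+ cow 430 and 11.74 in Fert- cow 426, and 8.81 to 10.1 in the other 14. SERPINA3 was at 16470 CPM in cow 430 and 23.6 to 2348 CPM in the other 15. The median log2 fold change of the 22 tested genes was 0.034, with HAMP and ITIH3 lower and 0 higher, and 2 are on the study's lists. The median had no stable sign: it was 0.49 without cow 426, with 4 genes higher and 1 lower, and -0.346 without cow 430, with 0 higher and 2 lower. Without both cows it was 0.154, with 0 higher and 2 lower, and without cow 426 and the library labelled 829 it was 0.448, with 3 higher and 0 lower. Hepcidin (HAMP), the hormone that lowers plasma iron, was at 27.1 to 50.6 CPM (median 30.9) in Fert+ and 14.6 to 148.8 CPM (median 68.7) in Fert-. Cows 426, 982 and 1000, at 138, 142 and 149 CPM, and the library labelled 829, at 87.4 CPM, were above every Fert+ cow, and cow 419 was below them all (-1.14 ± 0.41, permutation p 0.0996, and -0.94 without cow 426 and the library labelled 829). Of 15 immediate early genes, MYC and GADD45B were lower and 0 higher (median -0.401, 4 on the study's lists). MYC was at 4.65 to 21.3 against 4.96 to 49.1 CPM, and 4 Fert- libraries, those of cows 164, 426 and 982 and that labelled 829, were above every Fert+ cow (-1.16 ± 0.43). Without cows 426 and 829, 0 of the 15 were at an unadjusted p under 0.05.

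Of 23 complement genes 17 had a log2 fold change above 0 (median 0.125), 3 were higher and 1 lower at an unadjusted p under 0.05, and 4 are on the study's lists. CFD, factor D, which cleaves factor B in the alternative pathway, was at 0.720 to 2.89 CPM against 0.254 to 1.39 CPM (1.16 ± 0.35, permutation p 0.0073). CFHR4 was at 656 to 3175 CPM against 58.7 to 1476 CPM (1.07 ± 0.47, and 0.89 without cow 426). Cow 426 was the lowest for CFHR4 at all 3 time-points (60.3, 43.4 and 27.5 CPM scaled over 48 liver libraries).

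Several genes were on in some cows and off in others. The C1R copy ENSBTAG00000037743 was at 23.2 and 27.9 CPM in Fert- cows 996 and 1000 and at most 2.21 CPM in the other 14, and those cows had 26.5 to 36.5 CPM at EL and ML, scaled over the 48 liver libraries. Its log2 fold change of -2.51 ± 1.06 thus described 2 animals. In the EL and ML libraries labelled 829 it was at 16.9 and 10.7 CPM, and in the LP library so labelled at 0.645 CPM. FBP2 was at 4.76 to 13.3 CPM in 10 libraries (4 Fert+ and 6 Fert-) and at most 0.515 CPM in the other 6. None of the 13 MHC genes was at an unadjusted p under 0.05, while the exact test with 1 dispersion called 2 higher and 3 lower, and 5 are on the study's lists. BOLA-DQA2, a class II alpha chain, was at 0 in Fert+ cows 430, 3397 and 3445 and in Fert- cow 982, and those 4 were the highest of the 16 for BOLA-DQA1, at 133.7, 136.3, 107.9 and 136.9 CPM. Reads from near-identical MHC alleles may be placed on 1 copy or another, so these levels are uncertain.

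In xenobiotic and steroid metabolism (38 tested, median -0.0206, 7 on the study's lists), 3 genes were lower and 1 higher at an unadjusted p under 0.05. GSTT1, a theta class glutathione transferase, was at 29.9 to 193.0 CPM (median 82.2) against 123 to 207 CPM (median 152.9), and 6 of 8 Fert+ cows were below every Fert- cow (-0.77 ± 0.30, permutation p 0.00715). GSTT3 was at 89.9 to 169 against 126 to 231 CPM (-0.48 ± 0.14). UGT2B4 (ENSBTAG00000022205), a glucuronosyltransferase of bile acids and steroids, was at 37.5 to 227 CPM against 102 to 246 CPM, with 6 Fert+ cows below every Fert- cow (-0.66 ± 0.29). The bile acid group (6 tested, 1 on the study's lists) had 1 gene in each direction. CYP27A1, which opens the acidic route of bile acid synthesis, was at 268 to 382 CPM (median 322.7) against 318 to 490 CPM (median 403.0), with 5 Fert- cows above every Fert+ cow (-0.31 ± 0.10). GPBAR1, the membrane receptor for bile acids, was at 2.83 to 10.5 against 1.76 to 3.80 CPM (0.85 ± 0.27). No gene of endoplasmic reticulum stress (13 tested) was at an unadjusted p under 0.05.

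Genes high in cows 33 and 756 alone, the LP libraries of the second counting pattern, had some of the highest log2 fold changes. The EEF1A1 copy ENSBTAG00000035926 was at 493 and 368 CPM in those libraries and at most 3.196 CPM in the other 14, and 6.13 became 0.30 without them. The RPL10 copy ENSBTAG00000022275 was at 75.1 and 60.7 CPM there and at most 2.43 CPM elsewhere, and 5.09 became 0.98. For the AKR1C1 copy ENSBTAG00000021368, 1.89 became 0.57. For the COX7B copy ENSBTAG00000037415, 0.87 became -0.72. Both libraries were above all others in 243 of 12872 tested genes (1.89%) and in 58 of the 140 that the exact test with 1 dispersion called higher (41.4%).

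Whether the genotype difference at LP was unlike that at the other time-points was tested as an interaction over the 48 liver libraries. No gene passed an adjusted p of 0.05 in edgeR's quasi-likelihood test for LP against EL or for LP against ML. At an unadjusted p under 0.05 there were 1495 of 13815 genes for LP against EL (10.8%) and 328 for LP against ML (2.37%). DDIT4 had the smallest unadjusted interaction p of the genes named here, 5.2e-05 for LP against EL in that test. PGK1 had 0.0018 and ISG15 0.029. These p-values are from all 48 liver libraries, including those whose label was in doubt. The second counting pattern was also present at EL in Fert+ 33 and 3847 and Fert- 419. At ML it was present in Fert+ 430 and 3847 and Fert- 829. The interaction was not refitted without the libraries of that pattern. Cow 426, whose LP and EL time-point scores went against the labels, was at 123.5 CPM for DDIT4 and was the highest cow for ISG15 at LP. MARCO had log2 fold changes of 1.19 (LP), 0.30 (EL) and 0.80 (ML), and the interaction p-values were 0.082 and 0.445, so no difference between time-points was shown. Without the 4 libraries whose label was in doubt (829 at LP, 3434 at EL and 426 at both), 1 gene, ENSBTAG00000019780, passed for LP against EL, with an interaction of -0.75 on the log2 scale and an adjusted p of 0.0482 in edgeR's quasi-likelihood test against 0.181 with all libraries. It was chosen after its value was seen.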

How the data were processed

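Per the submitters' processing notes and the study's methods, base calls came from CASAVA 1.8, read pairs were aligned with STAR to the bovine genome UMD3.1 and counted per gene with featureCounts. The authors deposited 1 table of raw counts per library, which were used here, and whole-series tables that were not: their 96 unnamed sample columns were left out. The 16 liver libraries at late pregnancy were grouped by the labels. Genes were filtered with filterByExpr and scaled by TMM, and the genotype effect was tested by the robust quasi-likelihood method of edgeR and Benjamini-Hochberg adjustment at 0.05 (edgeR 4.0.16, limma 3.58.1, DESeq2 1.42.0, R 4.3.3, with figures and summaries in Python 3.11.15). Single genes were also compared with a two-sided exact permutation test on log2(CPM + 1). Library depth was 14966847 to 24338724 counts. All 56 within-group pairs differed by more than counting noise (chi-square per degree of freedom of 36.6 or more), so no library was counted as a duplicate. Nothing in the labels describes repeat biopsies of 1 cow at 1 time-point, so each n is a number of cows.

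Genes are named by their symbol where the study's own gene lists pair it with the identifier (2160 identifiers), otherwise by identifier. The text names the 12 genes with the smallest p in each direction, the genes the study's text names for this comparison, up to 4 tested members of each of 31 gene lists with the smallest p, and up to 10 non-overlapping genes, and says where others were added. Some genes that this rule names are not reported here. The gene lists and the comparison were chosen with earlier results of these data known. Labels were checked with 150 genes that differ between cows in muscle, centred within tissue and counting pattern, and with a time-point score that leaves out the scored cow. The same cow gave a library at each time-point, so libraries of 1 number are 1 animal: residuals correlated over 0.1 in 11 of 16 cows between LP and EL (median 0.23) and 13 of 16 between LP and ML (median 0.241). Alternatives were the exact tests, DESeq2, limma-voom, other scaling and filters, the cow as a block, and leaving out libraries. Leaving out pairs of libraries (426 with 829 or with 430, with or without the second counting pattern), the 4 doubted libraries of the interaction, and libraries from the exact test was chosen after seeing the data. Statistical steps were tested on simulated data.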

Additional observations from a re-analysis of the deposited data

Results flagged for a closer look

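In 38 of 202 groups of 8 cows, made from 101 named genes, the highest or lowest cow stood apart from the nearest other. The rule was a ratio of that gap to the range above Dixon's 95% critical value, which chance gives about 1 in 20 times for independent normal values. These are untransformed CPM of genes that were partly chosen by their values and share the same cows, so that rate does not apply to them. The 38 flags fell in 33 genes, 13 of the flags in Fert- cow 426 and 4 in Fert+ cow 430. All values are CPM.

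In cow 426 the high values were 2744 for PC, 194.5 for SDS, 995.9 for PDK4, 2503 for IGFBP1, 166.5 for SLC25A25, 73.39 for PPARGC1A, 285.8 for MDH2, 1393 for ARG1, 292.2 for ACMSD, 1157 for ACADVL, 15.82 for GADD45B, 97.54 for ISG15 and 37.15 for ISG12(B). In cow 430 they were 26.44 for SDS, 160.2 for IDO2, 16470 for SERPINA3 and 137.6 for CCDC80.

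In Fert+ cow 756 SFRP2 stood at 1.106, KIFC1 at 1.91, CDCA3 at 1.408, BIRC5 at 3.67, BOLA-DQA5 at 10.81 and HBB at 11.81. In Fert+ cow 33 UGT2B4 (ENSBTAG00000022205) stood at 226.9, AFM at 428.6 and AKR1C1 (ENSBTAG00000021368) at 20.16. In Fert+ cow 3397 PAMR1 stood at 6.856 and KEL at 17.17, in cow 3434 PDK4 at 259.1 and in cow 3847 MYC at 21.34. In Fert- cow 164 the values were 87.37 for ENSBTAG00000008634, 18.15 for BOLA-DQA5, 214.3 for IGHM (ENSBTAG00000001219) and 331.8 for IGHM (ENSBTAG00000048049). SFRP2 stood at 7.967 in Fert- cow 419, UGT2B4 (ENSBTAG00000022205) at 245.9 in cow 982, COX7B (ENSBTAG00000030735) at 0.6351 in cow 1179 and CYB5R2 at 4.961 in the library labelled 829.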

How the results depend on the processing

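The quasi-likelihood test called 0 genes with RLE scaling, no filter, a mean CPM of at least 1, no robust estimation, the counting pattern as a term, all 48 liver libraries, and without any 1 library (589 to 1120 genes at an unadjusted p under 0.05). DESeq2 and limma-voom also called 0. The count of calls moved with the kind of test: it was 306 with 1 common dispersion and 18 with gene-wise dispersions. With 1 common dispersion and libraries left out it was 237 without the second counting pattern, 262 without cows 426 and 430 and 233 also without that pattern, 281 without cows 426 and 829 and 271 also without that pattern. Without any 1 library it was 252 to 332.

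With the cow as a replicate block, 1651 genes were at an unadjusted p under 0.05 for LP against EL and 380 for LP against ML, against 1495 and 328 without it, and the block changed no call. Without 4 doubted libraries LP against EL called 1 gene. Without a filter, 595 genes were at an unadjusted p under 0.05 for LP against ML.

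Of 3560 alternative values of 99 named genes, 3194 kept direction and side, 329 passed the threshold, all in exact tests, and 37 changed sign, in 9 genes. The cause was not tested. PC was 0.081 without cows 426 and 430 and the second counting pattern, and 0.102 without 426, 829 and that pattern. SDS was 0.208 in DESeq2, 0.215 without 426, 0.273 without 426 and 829, 0.409 also without that pattern, and 0.052 without 426, 430 and that pattern (0.053 in the exact test). ACMSD was 0.04 without 426, 829 and that pattern (0.039 in the exact test). SERPINA3 was -0.257 in DESeq2, -0.531 in voom, -0.238 without 430 and -0.312 without 426 and 430. CASP16 was 0.608 in voom. COX7B (ENSBTAG00000037415) was -0.718 with that pattern as a term, -0.723 without it (exact -0.722), -0.722 also without 426 and 430 (exact -0.718), -0.725 also without 426 and 829 (exact -0.722), and -0.016 in voom. The C1R copy was 1.073 in DESeq2. CCDC80 was -0.154 in DESeq2, -0.157 without 430, -0.108 without 426 and 430, and -0.126 also without that pattern (exact -0.125). IGHM (ENSBTAG00000048049) was 0.073 in DESeq2 and 0.079 without 164. Without any 1 library SDS ran from -1.668 to 0.215, SERPINA3 from -0.238 to 2.127, CCDC80 from -0.157 to 3.304 and that IGHM copy from -0.993 to 0.079. Depth was not varied, so what it limits was not tested.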
